A study of Mus musculus with 15 samples.

Results

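The day 3 unique sites described here are places where SAM68 was mapped on RNA in day 3 embryoid bodies but not at the same place on day 0 or day 10, although the gene itself was bound on all 3 days. A constantly bound gene was one whose Ensembl identifier had 3 or more sites in each of the day 0, day 3 and day 10 lists. A site was called unique when it shared no nucleotide with a day 0 or day 10 site on the same strand. The rule found 12312 such sites, out of 19183 day 3 sites in 1537 constantly bound genes, 28266 day 3 sites in all and 132293 sites in the 3 lists together. The members were thus chosen by the called positions of the sites and by their number per gene, so the number of unique sites and the fact that they do not overlap are descriptions. The rule also bounds distance from below, since sites of 5 nt that share no nucleotide have centres at least 5 nt apart, and the minimum of 3 sites per list bears on distance too, so distances are given as descriptions. Position along the gene and gene length were not used directly, but the rule bears on both. It leaves out day 3 sites that lie on day 0 or day 10 sites, and its minimum per list decides which genes enter.

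SAM68, encoded by Khdrbs1, belongs to the STAR family of RNA-binding proteins and acts in alternative splicing, in the choice of polyadenylation sites and in other steps of RNA processing. It binds short A- and U-rich elements, mostly in introns of pre-mRNA, as a dimer whose subunits each contact such an element. Because these elements are short and common, a long intron offers many possible contact points.

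The material was the E14 line of mouse embryonic stem cells, an established line, with no genetic change named in the labels. Day 0 cells were undifferentiated, grown without feeders in serum with leukemia inhibitory factor and inhibitors of GSK3 and MEK. Day 3 cells were embryoid bodies, aggregates in which stem cells begin to form derivatives of the germ layers, made in hanging drops with 10% serum. Day 10 embryoid bodies were started directly in spheroid microplates, so effects of time and of the culture vessel cannot be told apart. Each day had 5 iCLIP2 libraries, 15 in all. In iCLIP2 ultraviolet light joins protein and RNA, an antibody recovers the complex, and reverse transcription stops at the crosslink. The antibody was polyclonal against SAM68, and no library with another antibody or without SAM68 was analysed here, so no background level was available.

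The authors gave 1 list of 5 nt sites per day, with 29740 sites on day 0, 28266 on day 3 and 74287 on day 10. The lists hold no value per library and no crosslink count. The depth and the spread between libraries are therefore unknown, and the days were compared without a test. A site missing from a list can have been unbound or below the calling threshold, and these cannot be told apart. RNA abundance was not measured, so a change in bound places within a gene cannot be set against the amount of its RNA. Intervals are exact binomial 95% intervals for counting error alone, and they are too narrow where neighbouring sites of a gene depend on each other. Site numbers in marker genes followed the labels. From the first list to the last, Esrrb, of the naive stem cell state, had 39, 1 and 0 sites, Dnmt3b, of the primed state, 0, 20 and 0, and Gata6, of endoderm and heart, 0, 0 and 33.

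Sequence around a site could be read only where a RefSeq promoter window of build GRCm38.p6 covers it, which held for 12 of the 12312 unique sites and 43 of the 6871 day 3 sites in the same genes that overlapped a day 0 or day 10 site, called shared sites below. These few lie next to annotated transcript starts and do not stand for the rest, which lie mostly deep inside genes. The sequences below show the range of distances. They run 5′ to 3′ on the transcribed strand, 29 bases each, with the 5 nt of the called site in capitals. For Rps21, a small-subunit ribosomal protein, and Trip12, a ubiquitin ligase, the unique site is printed under the shared day 3 site beside it. The windows were chr2:180257401-180257429 and chr2:180257406-180257434 for Rps21 on the plus strand, and chr1:84839280-84839308 and chr1:84839286-84839314 for Trip12 on the minus strand. The other unique sites shown lie in Rpl19, a large-subunit ribosomal protein (chr11:98026941-98026969, plus), Ywhae, a 14-3-3 protein (chr11:75732900-75732928, plus), Cbx5, heterochromatin protein HP1 alpha (chr15:103215559-103215587, minus), Ybx1, a cold-shock RNA-binding protein (chr4:119294486-119294514, minus), Ahcyl2 (chr6:29859414-29859442, plus) and Dgkh, a diacylglycerol kinase (chr14:78629435-78629463, minus).
Rps21 shared: aggcacgagctaCTTCCtttctgcgctct
Rps21 unique: cgagctacttccTTTCTgcgctctcgctg
Trip12 shared: cgctggggggggTGGGGggagccagtgga
Trip12 unique: cgccgccgctggGGGGGgtggggggagcc
Rpl19 unique: cctgcggcccacAAGCTctttcctttcgc
Ywhae unique: cgcaggcggaagTCCCGgattgaggcgcc
Cbx5 unique: ctaaaatttggaCTTTAaaacaaagaact
Ybx1 unique: ccgccattctcgCTAGTtcgatcggtagc
Ahcyl2 unique: agctgtgtaataATGTGttaggaaaaaaa
Dgkh unique: caactgctaataAGCTTtacccaaagaag

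The Rps21 unique site lay 5 nt from the nearest day 0 site and 5 nt from the nearest day 10 site, so it touched the shared site without overlapping it. The Rpl19 site lay 5 nt from a day 10 site and 11 nt from a day 0 site. In Trip12 the nearest day 0 site was 10 nt away and the nearest day 10 site 116 nt away, and in Ywhae these values were 2540 nt and 22 nt. The Cbx5 site lay 429 nt from a day 0 site and 434 nt from a day 10 site, and the Ybx1 site 1753 nt and 2041 nt. The Ahcyl2 site lay 8305 nt and 12662 nt away, and the Dgkh site 10349 nt from a position that both other lists held. Of the 12 windows, 1, that of Cbx5, held TAAA or TTAA, the short elements searched for on the transcribed strand. On the other strand 3 did. Of the 43 windows of shared sites 4 held one (9.30%, 2.59 to 22.1), and 13.8% of all promoter windows cut into pieces of 29 bases did. TAAA and TTAA can overlap each other, and a window was counted once. With 12 windows the share of 8.33% had an interval of 0.211 to 38.5%, so no difference could be detected at this number.

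Day 3 sites in constantly bound genes were more often unique than shared. Of the 19183 sites, 64.2% were unique (63.5 to 64.9), against 66.4% of all day 3 sites, and nothing is read from this share, which follows from the rule. A further 15.4% overlapped a day 10 site only, 7.78% a day 0 site only and 12.6% sites of both days. The same rule applied to the other lists in the same genes gave 63.8% for day 0 (63.2 to 64.5) and 78.8% for the longer day 10 list (78.4 to 79.2). Constantly bound genes were 30.5% of the 5034 genes with a day 3 site and 19.3% of the 7949 genes with a site on any day.

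Overlapping sites were mostly in register. Among shared sites, 3519 lay at exactly the position of a day 0 or day 10 site and 2213 were displaced by 1 nt, together 51.2% and 32.2% of the shared sites. Displacements of 2, 3 and 4 nt were held by 709, 276 and 154 sites. Just outside the border, 89, 83, 80, 102 and 75 sites had their centre 5, 6, 7, 8 and 9 nt away, in all 3.48% of the unique sites. Few unique sites thus lay close to the border. At the other threshold, 66.6% of day 3 sites were unique in the 330 genes whose lowest count over the lists was 3, and 63.1% in the 549 genes, outside the rule, whose lowest count was 2.

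Most unique sites, 85.9%, lay more than 50 nt from the nearest site of another day. The median distance between centres, within the same gene, was 332 nt, with quartiles of 114 and 1090 nt. Within 50 nt, the shorter end of the RNA fragments made by RNase I, lay 1731 unique sites or 14.1% (13.4 to 14.7). Within 10 nt lay 4.02% and within 100 nt 22.8%. Beyond 1000 nt lay 3254 sites, 26.4%, and beyond 10000 nt lay 369 sites, 3.00%. The neighbour lay upstream for 6196 sites and downstream for 6116, so neither side prevailed.

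Distances to the separate lists differed with list length. The median distance was 1111 nt to a day 0 site (1063 to 1168) and 519 nt to a day 10 site (500 to 540), in lists of 19511 and 40359 sites in these genes. A day 10 site was the nearer one for 7581 unique sites, a day 0 site for 4149, and both were equally near for 582. Of the sites within 50 nt of another, 1025 were near day 10 only, 419 near day 0 only and 287 near both.

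The other lists gave distances of similar size, with some differences. Day 0 unique sites in these genes lay a median of 329 nt from the nearest day 3 or day 10 site, and 14.4% lay within 50 nt (13.8 to 15.1), an interval that overlaps that of day 3. In the lists of like length, day 3 unique sites lay 1111 nt from day 0 sites (1063 to 1168). Day 0 unique sites lay nearer to day 3 sites, at 989 nt (947 to 1037), and these intervals do not overlap. Day 10 unique sites lay 570 nt from the nearest site of the 2 shorter lists, with 9.79% within 50 nt.

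**Figure D1:**
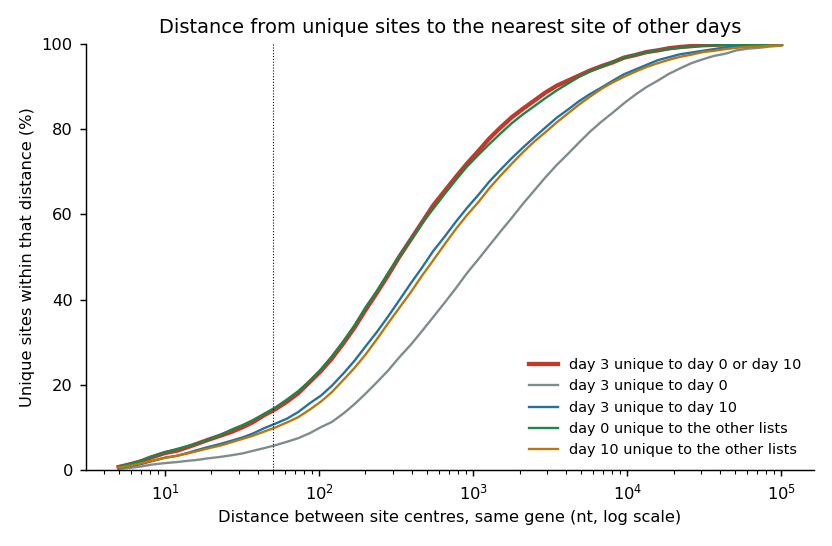
Cumulative percentage of unique sites in the 1537 constantly bound genes whose nearest site of another list lies within a given distance (nt between centres, same gene, log axis). The dotted line marks 50 nt. The day 3 curve to both lists (red) and the day 0 curve (green) lie together, with medians of 332 and 329 nt, and the day 3 curve to day 0 alone (grey) lies lowest, with a median of 1111 nt.

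Unique sites were interleaved with the sites of the other days. The minimum of 3 sites per list bears on this, so the shares are descriptions. Of the 12312, 11441 or 92.9% lay between 2 neighbouring day 0 or day 10 sites of the gene (92.5 to 93.4), 404 lay upstream of the first and 467 downstream of the last. For day 0 unique sites the share between neighbours was 92.5% and for day 10 unique sites 89.1%. The gaps that held day 3 unique sites had a median of 2257 nt. Distance to the nearer neighbour was set against the largest that the gap allows, so that 0 is at a neighbour and 1 midway. Its median was 0.393 with quartiles of 0.155 and 0.686, and the medians for day 0 and day 10 unique sites were 0.394 and 0.396. Even placement within the gaps would put the median at the centre of the range from 0 to 1, and these medians lay below that.

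Unique sites rarely formed tight clusters. When sites of a gene with centres within 50 nt were joined, 11947 unique sites stood alone and 365, or 2.96%, had a unique neighbour. The nearest other day 3 site, unique or shared, lay a median of 874 nt from a unique site (837 to 901) and 564 nt from a shared site (533 to 592). The order was the same in genes up to 50 kb, with 592 and 415 nt, and in longer genes, with 987 and 682 nt.

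At a larger scale, some gaps held a series of day 3 sites with no day 0 or day 10 site among them. A gap with a single unique site was the rule, in 7291 of 9312 gaps, but 94 gaps held 5 or more and 10 held 10 or more, the latter in 7 genes. The genes named next were chosen after these values were seen, apart from Chd9 and Cadm1. Frmd5, a protein of the FERM family, had 7, 49 and 3 sites on the 3 days, and 16 of its 46 unique sites followed each other over 47.1 kb, between centres 121747310 and 121794446 of chromosome 2. Rasal2, an activator of the GTPase activity of Ras, had 14 unique sites in a row over 35.6 kb, between 157247340 and 157282929 of chromosome 1. Chd9 had 13 over 21.3 kb and Cadm1 12 over 26.2 kb and 11 over 13.5 kb.

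Along the gene as a whole, day 3 unique sites were spread much as the other sites were. Positions run from 0 at the 5′ end to 1 at the 3′ end of the RefSeq span and were known for 12000 unique sites. Their median was 0.49 (0.481 to 0.50), against 0.491 for shared day 3 sites (0.478 to 0.503), 0.488 for all day 0 sites and 0.484 for all day 10 sites. With the gene cut into 5 equal parts, each part held between 19.1% and 20.8% of the unique sites, and with 10 parts between 8.61% and 10.8%. Unique sites within 50 nt of another site and those beyond 1000 nt had medians of 0.504 and 0.488.

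**Figure D2:**
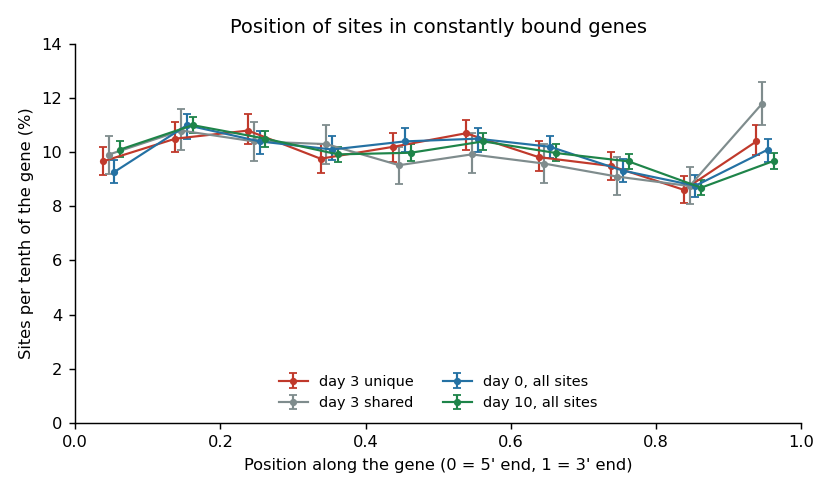
Percentage of sites in each of 10 equal parts of the gene span, from 5′ to 3′, for day 3 unique, day 3 shared, all day 0 and all day 10 sites in constantly bound genes, with exact 95% intervals. The profiles run nearly level, between 8.61% and 11.8%, and the highest point is that of shared sites in the last part.

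The exceptions to this likeness were at the gene ends, and they were clear only in genes up to 50 kb. Within 1000 nt of the 5′ end lay 78 unique sites, 0.65% (0.514 to 0.811), and 131 shared sites, 1.96% (1.64 to 2.32). Within 1000 nt of the 3′ end lay 3.40% of unique sites (3.08 to 3.74) and 5.13% of shared sites (4.62 to 5.69). In genes up to 50 kb the 5′ shares were 2.30% and 5.79%, with intervals apart. In longer genes they were 0.162% and 0.218% and could not be told apart at 15 and 10 sites. At the 3′ end they were 8.94% and 12.1% in the shorter genes and 1.76% and 1.98% in the longer ones. In the longer genes these intervals overlap, at 1.5 to 2.05 and 1.6 to 2.43. In 43 ribosomal protein genes of 1.07 to 9.65 kb, chosen after their values were seen, 41 shared and 2 unique sites lay within 100 nt of the 5′ end. That window is narrower than 1000 nt, and how far these genes account for the 5′ difference was not tested. All day 0 and all day 10 sites had 1.08% and 0.877% in the first 1000 nt.

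Within single genes the unique sites were compared with the day 0 and day 10 sites of the same gene. Day 3 sites that overlap those sites are left out by the rule, so part of a shift can follow from it. Of 1170 genes with 3 or more unique sites and a known span, 626 or 53.5% had the median of the unique sites nearer the 3′ end (50.6 to 56.4) and 544 nearer the 5′ end. The median shift was 0.00702 of the gene, with quartiles of -0.0823 and 0.105. Day 0 and day 10 unique sites treated the same way were nearer the 3′ end in 46.8% and 50.3% of genes. A shift beyond 0.2 of the gene in either direction was seen in 279 genes, 23.8%, and the shares for day 0 and day 10 were 24.8% and 22.7%. Such shifts grew rarer with more sites, in 58 of 367 genes with 10 or more unique sites and in 8 of 112 genes with 20 or more. In these genes 57.2% (52 to 62.3) and 58% (48.3 to 67.3) had the unique sites nearer the 3′ end, whatever the size of the shift. The intervals overlap that of all 1170 genes, which include these genes, and the second includes 50%. Genes are not replicates, so these counts carry no test.

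**Figure D3:**
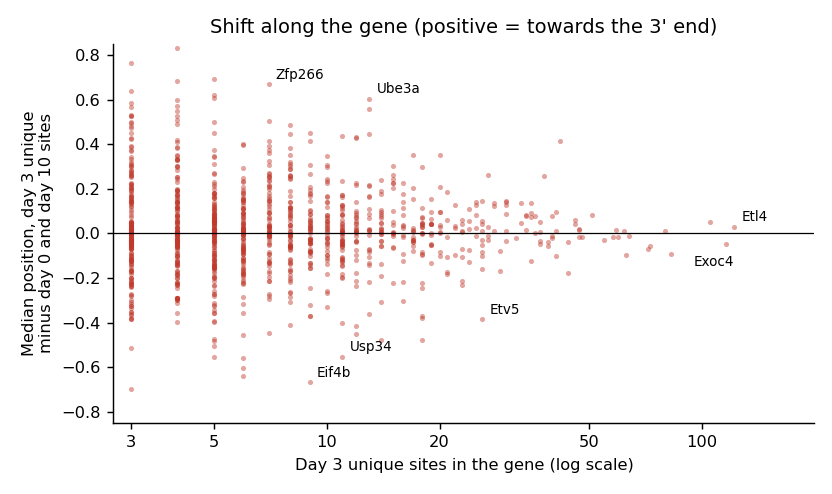
Shift of each of 1170 genes, as the median position of its day 3 unique sites minus that of its day 0 and day 10 sites (fraction of the gene span, positive towards the 3′ end), against its number of unique sites (log axis). Genes with few sites scatter widely on both sides of 0, and those with most sites, such as Etl4 at 0.0307 and Exoc4 at -0.0493, lie close to it.

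The genes named next were ranked by the shift itself, among genes with 5 or more unique sites. Towards the 5′ end it was largest in Eif4b, a translation initiation factor, with a median of 0.259 over 9 unique sites against 0.927 for the other days. Cog5, of the Golgi-tethering COG complex, had 0.186 over 6 against 0.824, and Atxn10 0.067 over 6 against 0.672. Quartiles of unique and other sites overlapped in all of these, at 0.0219 to 0.687 against 0.267 to 0.892 in Atxn10. Araf, a RAF kinase, Tpr, a nucleoporin of the nuclear basket, and Usp34, a deubiquitinase, shifted by -0.557, -0.555 and -0.553. Among the same ranked genes, some of the largest shifts towards the 3′ end were in Zfp266, a zinc finger protein, with 0.838 over 7 unique sites against 0.169. Sin3a, a corepressor scaffold, had 0.849 over 5 against 0.227. Shifts of 0.609, 0.604 and 0.559 followed in Cbl, Ube3a and Caprin1. Quartiles of unique and other sites also overlapped in Tpr, Usp34, Zfp266, Ube3a and Caprin1, but not in Araf, Sin3a and Cbl. Ube3a, a ubiquitin ligase imprinted in neurons, had 13, 21 and 71 sites in the order of the days. Its 13 unique sites had a median position of 0.936, in a part of the gene where day 0 and day 10 sites lay too, at a median distance of 124 nt. Its unique sites were spread from a lower quartile of 0.253 to an upper quartile of 0.944.

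Etv5 was the gene with the largest shift among the 3 constantly bound pluripotency genes examined. It encodes an ETS transcription factor of stem cells that responds to FGF signalling. Its sites numbered 31, 35 and 4 from day 0 to day 10, and 26 of the 35 were unique. Their median position was 0.37, with quartiles of 0.182 and 0.683. It was 0.755 for its day 0 sites, 0.623 for its day 10 sites and 0.871 for its 9 shared day 3 sites. The day 0 and day 10 sites together had quartiles of 0.38 and 0.893, a range that overlaps that of the unique sites. The unique sites lay a median of 463 nt from a day 0 site and 4030 nt from a day 10 site, and 4 lay upstream of every day 0 or day 10 site.

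The genes with most unique sites were long genes bound heavily on day 3. Etl4, the sickle tail gene on chromosome 2 between 19910207 and 20810535, held 140, 180 and 161 sites on the 3 days, and 122 of the 180 were unique (67.8%, 60.4 to 74.5). Their median distance was 232 nt, and their median position of 0.817 was near the 0.787 of the other days. All sites of Etl4 lay at least 616 kb from the 5′ end of the 900.0 kb RefSeq span. Exoc4, a subunit of the exocyst that tethers secretory vesicles, held 143, 175 and 435 sites, with 116 unique at a median distance of 192 nt. That distance was 212 nt to day 10 sites and 1174 nt to day 0 sites. Rbpms, an RNA-binding protein of the RRM family, held 60, 149 and 201 sites with 80 unique, 53.7% of its day 3 sites, at 174 nt.

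Abcc4, Chd9 and Cadm1 had fewer sites on each of the other days than on day 3, and large distances. Abcc4, an efflux transporter, held 25, 120 and 31 sites, and its 105 unique sites lay a median of 1094 nt from the others. Chd9, a chromodomain helicase, held 34, 92 and 17 sites, of which 83 were unique (90.2%, 82.2 to 95.4), at 1427 nt from day 0 sites and 10302 nt from day 10 sites. Cadm1, a cell adhesion molecule of the immunoglobulin family, held 5, 78 and 20 sites with 73 unique (93.6%, 85.7 to 97.9), at 3909 nt. In these 3 genes 55, 47 and 57 unique sites lay over 1000 nt from a site of another day.

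Phf21a reads unmethylated histone H3 lysine in a demethylase complex, and Jmjd1c is of the jumonji demethylase family. Both held fewer sites on day 0 than on day 3, but as many on day 10 as on day 3 or nearly so. Phf21a held 4, 90 and 91 sites and Jmjd1c 14, 75 and 67, and 72 and 63 of their day 3 sites were unique. In Phf21a the unique sites lay 21705 nt from day 0 sites and 627 nt from day 10 sites. Ptprg, a receptor tyrosine phosphatase, held 15, 70 and 57 sites with 62 unique. Smyd3, a lysine methyltransferase, held 102, 94 and 67 sites with 64 unique at 479 nt. Ext1, a polymerase of heparan sulfate, held 20, 88 and 219 with 60 unique, and Magi1, a scaffold of cell junctions, 22, 97 and 306 with 59 unique, at 288 and 306 nt.

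**Figure D4:**
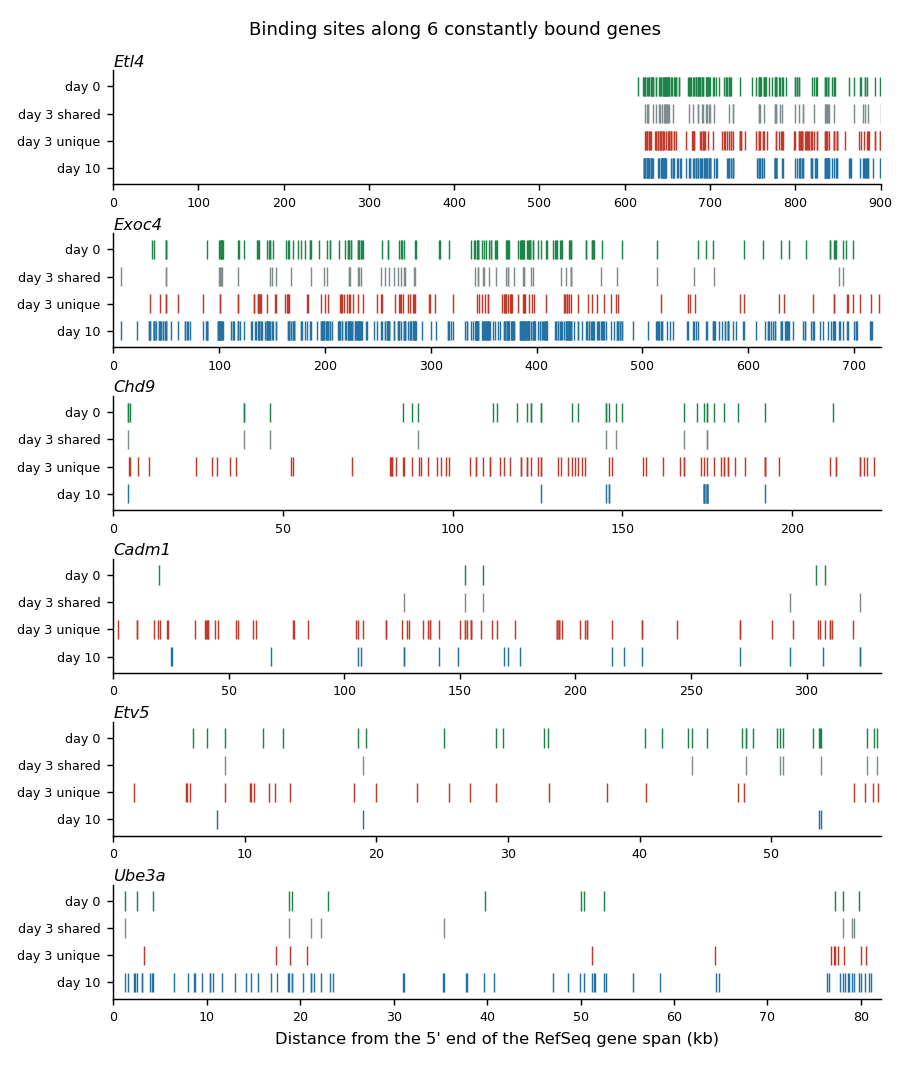
Sites along 6 constantly bound genes, as distance in kb from the 5′ end of the RefSeq span, in rows for day 0, day 3 shared, day 3 unique and day 10. In Etl4 and Exoc4 the 122 and 116 unique sites lie among the sites of the other days, in Chd9 and Cadm1 they also fill stretches without them, in Etv5 they lie more towards the 5′ end, and in Ube3a part of them group near the 3′ end.

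Among the 645 genes with 10 or more day 3 sites, the share of unique sites ran from 17.6% to 100%, with a median of 64.7% and quartiles of 55.2% and 75%. The lowest shares were in Ddx17, a DEAD-box helicase that acts in splicing, with 3 unique of 17 sites, Ddx6, a DEAD-box helicase of P-bodies, with 2 of 10, Eif2s2, a subunit of initiation factor eIF2, with 2 of 10, Rad23b, of nucleotide excision repair, with 3 of 13, and Mier1 and Zfp992, each with 4 of 17. Every day 3 site was unique in Cul1, the scaffold of SCF ubiquitin ligases, with 14, Sash1 with 13, Dtl, a substrate receptor of a cullin ligase, with 12, and Smad7, an inhibitor of TGF-beta signalling, and Abcg2, an efflux transporter, with 10 each. Pmepa1, a TGF-beta-induced inhibitor of the pathway, had 18 of 19. Cul1 had 10 day 0 and 29 day 10 sites, and its unique sites still lay a median of 174 nt from one of them. Pmepa1 had 5 and 4, and its unique sites lay 1470 nt away. Intervals of these shares are wide, 76.8 to 100% for Cul1 and 3.8 to 43.4% for Ddx17.

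Per gene with 5 or more unique sites, the median distance ran from 11 to 27504 nt over 837 genes. It was largest in Lrba, a BEACH-domain protein of vesicle traffic, at 27504 nt over 8 unique sites, Rabgap1l, a Rab GTPase-activating protein, at 11481 nt over 12, Epb41l4a at 10585 nt, Cdk6, a kinase of the cell cycle, at 10150 nt, Sik2, a salt-inducible kinase, at 10000 nt and Gng2, a G-protein subunit, at 9176 nt. These genes had at most 7 sites on day 0 and 13 on day 10. The site farthest from any other day was in Lrba, at 86746876 of chromosome 3, 159 kb downstream of the last day 10 site. The next farthest, named by rank of distance, were in Mipol1, Suclg2, Fam110b and Fmnl2, at 64.9, 64.3, 63.0 and 56.7 kb.

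The genes with the largest share within 50 nt had few unique sites. Among them, Igf2bp2, an RNA-binding protein, had 4 of 5. Picalm, a clathrin assembly protein, had 3 of 5 with a median of 11 nt, and Dcaf8 and Snapc3 had 3 of 5 each. Distance and the unique share also followed the density of day 0 and day 10 sites in the gene, which is so by construction, since both are measured against those same sites. The values are given for scale. In the 376 genes with the sparsest day 0 and day 10 sites, 0.137 to 2.67 per 10 kb, 75.6% of day 3 sites were unique (74.2 to 76.9), at a median of 974 nt. In the 376 densest genes, 8.92 to 109 per 10 kb, 54.4% were unique (53.1 to 55.8), at 182 nt. The distance relative to the gap had medians of 0.367 and 0.446.

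Gene length moved with the same measures. In genes up to 20 kb, 48.1% of day 3 sites were unique (45.3 to 50.8), at a median of 178 nt, and 23.0% of them lay within 50 nt of another site. In genes of 200 to 400 kb these values were 73.1% (71.4 to 74.8), 679 nt and 9.70%. Genes over 400 kb had 70.2%, 431 nt and 11.1%. Protein-coding genes held 12159 of the unique sites. The 11 lincRNA genes had 47 unique sites of 103, 45.6% (35.8 to 55.7), against 64.5% in protein-coding genes (63.8 to 65.2), and the 5 antisense genes 44 of 88. Gene length and site density were not compared between these classes, so nothing is read from the differences.

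**Figure D5:**
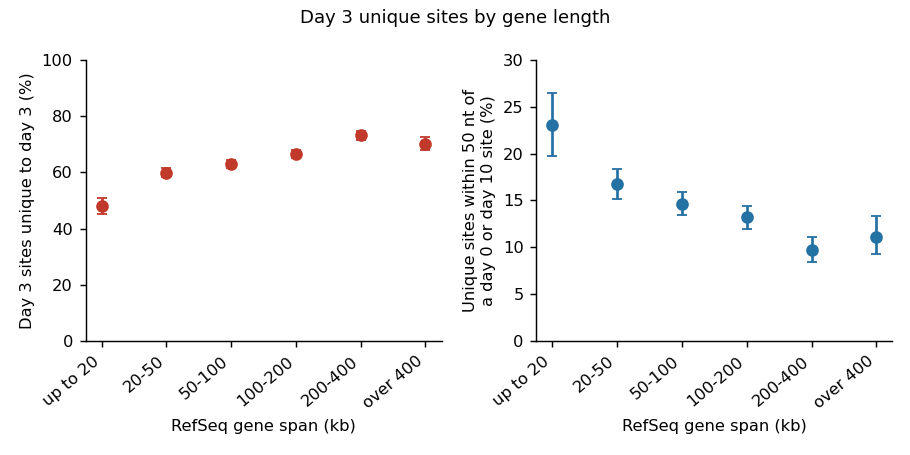
Percentage of day 3 sites that are unique (left) and of unique sites within 50 nt of a day 0 or day 10 site (right), by RefSeq gene span in kb, with exact 95% intervals. The unique share runs from 48.1% to 73.1% and the share within 50 nt from 23.0% to 9.70% between genes up to 20 kb and genes of 200 to 400 kb.

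Gene lists were described by their sites beside all constantly bound genes, in which 64.2% of day 3 sites were unique, the median distance was 332 nt and 14.1% lay within 50 nt. Of 60 splicing and RNA-binding protein genes with a site on any day, 41 were constantly bound, and 474 of their 862 day 3 sites were unique, 55.0% (51.6 to 58.3), at 206 nt. Besides Rbpms these were led by Msi2, a Musashi protein, with 39, 91 and 160 sites and 58 unique, and Tnrc6b, of the microRNA silencing complex, with 10, 43 and 66 sites and 35 unique. Chromatin regulators, 42 constantly bound of 58, had 531 unique of 817 sites, 65.0% (61.6 to 68.3), at 395 nt. Jarid2, which works with Polycomb proteins, had 35, 60 and 51 sites with 46 unique, and Nipbl, the cohesin loader, 17, 48 and 107 with 37 unique at 152 nt.

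Genes of the cytoskeleton, adhesion and their GTPase regulators, 31 constantly bound of 49, had 496 unique of 755 sites, 65.7%, at 422 nt. Enah, an actin regulator of the Ena/VASP family, held 57, 67 and 103 sites with 44 unique, at a median position of 0.425 against 0.601 for the other days, and Diaph3, a formin, 113, 57 and 117 with 41 unique. Cell cycle, replication and repair genes, 25 of 54, had 250 unique of 369 sites, 67.8% (62.7 to 72.5). In 14 of them the unique sites lay nearer the 3′ end and in 6 nearer the 5′ end, against 53.5% nearer the 3′ end over all genes. This was the most uneven split of the 9 lists, and at this number of genes nothing is read from it. Signalling genes, with 12 and 13, and pluripotency genes, with 1 and 2, went the other way. Rad51b, of recombination repair, held 88, 77 and 55 sites with 55 unique, Stag1, a cohesin subunit, 68, 42 and 67 with 29, and E2f3, a transcription factor of the G1 to S transition, 18, 32 and 54 with 24.

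Ubiquitin genes, 34 of 54, had 306 unique of 499 sites, 61.3%, and signalling genes, 26 of 52, had 227 of 351, 64.7%, and both had intervals that include 64.2%. Huwe1, a HECT ubiquitin ligase, had 25 unique of 36, Ube2k, a conjugating enzyme, 23 of 42 and Nedd4, another HECT ligase, 18 of 40. Tnks2, a tankyrase that acts on axin, had 18 of 27. Vesicle traffic genes, 19 of 45, had 207 of 312, 66.3%, of which 116 lay in Exoc4, and Dnm1l, a dynamin of mitochondrial fission, had 12 of 23.

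The pluripotency list had 3 constantly bound members of 26 with a site, Etv5, Tcf7l1 and Trim71, with 103 unique of 135 sites, 76.3% (68.2 to 83.2), at 335 nt. Tcf7l1, a repressor of Wnt targets in stem cells, held 64, 70 and 101 sites with 51 unique, and Trim71, an RNA-binding protein of early development, 14, 30 and 18 with 26 unique. Among transcripts reported as SAM68 targets, 4 of 16 with a site were constantly bound, Tcf7l1, Hnrnpa2b1, Ogt and Sipa1l1, and their unique sites were 59 of 94, 51 of them in Tcf7l1. Ogt, the O-GlcNAc transferase, held 12, 12 and 31 sites with 3 unique, and Hnrnpa2b1, a splicing factor, 10, 9 and 15 with 4 unique.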

How the data were processed

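SAM68 iCLIP2 was read from 3 deposited lists of 5 nt sites, 1 per day, each combining 5 libraries. Each site had a gene, and sites where genes overlap had been dropped, per the file headers. The deposited score is 0 for every site and was not used. The submitters' processing notes name the mouse build GRCm38.p5 beside GRCh38.p14 and, without roles, the aligner STAR 2.7.11a, SAMtools 1.22.1, bedtools 2.31.1, UMI-tools 1.1.6, MultiQC 1.31 and FastQC 0.12.1. For the site caller and any filter over replicates the method is not given in the sources used here. Per the labels' protocols, crosslinking was at 254 nm and 150 mJ/cm2 and RNA was trimmed to 50 to 200 nt.

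Overlap was 1 nt or more on the same strand, and distances were between centres (counted from 1) within a gene. Symbols and spans came from RefSeq genes of GRCm38.p6 of the same class, and strand where known, that held at least 80% of a gene's sites. This named 7494 of 7949 identifiers and 1504 of the 1537 constantly bound ones. Of protein-coding sites, 98.7% fell within the span of a RefSeq protein-coding gene, and 46.6% did once moved by 1 Mb. Exons, introns and UTRs were not used here. RefSeq promoter windows gave the printed sequences.

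No test was made, because there is no value per library. Members and the 9 gene lists were chosen with earlier results of these data known. Named genes were the 12 with most unique sites, the 6 at each end for unique share (10 or more day 3 sites) and position shift, the 6 with the largest distance and the 6 with the largest share within 50 nt (5 or more unique sites), and 3 per list. Some that the rule names are not reported here. The calculations, in Python 3.11.15, NumPy 2.4.6, pandas 2.3.3, SciPy 1.17.1 and matplotlib 3.10.9, were tested on simulated data.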

Additional observations from a re-analysis of the deposited data

How the results depend on the processing

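The unique share of 64.2% became 61.6% and 55.2% when no other site was allowed within 10 nt or 50 nt, and 79.6% and 72.0% against the day 0 or the day 10 list alone. The median distance of 332 nt became 362 and 446 nt with those gaps, 1030 and 510 nt against the single lists, 290 nt in genes with 10 sites in each list and 316 nt when taken per gene first. The share within 50 nt of 14.1% became 10.5% with the 10 nt gap, 6.48% and 11.1% against the single lists and 15.4% per gene. The gaps and single lists change these values by construction, since they alter which sites count as unique. The median position of 0.49 became 0.477 in genes with 10 sites in each list, 0.503 per gene and 0.472 on the span of the sites, and for these the cause was not tested. The other 42 of 59 alternatives stayed within the interval of the reported value, among them all 14 for the share of genes shifted towards the 3′ end, which ran from 51.2% against day 10 sites to 54.6% with 5 unique sites per gene. The interval of the reported 53.5%, 50.6 to 56.4, leaves out 50%, but that of 6 of these 14 includes it: genes with 2 or with 10 sites in each list, the 50 nt gap, the day 10 list alone, and the comparisons with shared day 3 sites and with day 10 sites, whose lower bounds ran from 48.2% to 49.9%. Genes with 10 or 20 unique sites gave 57.2% and 58%. Leaving out Etl4, the gene with most unique sites, gave 64.1%, 334 nt, 14.1% and 0.485. No paired analysis was possible because each day is 1 combined list, and for the same reason no replicate could be left out. Without crosslink counts, sites of low occupancy cannot be told from absent ones, which limits every statement that a site is unique.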

Other observations

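Ribosomal protein genes stood at the other end from the long genes. This group was chosen after its values were seen. The 43 constantly bound Rpl and Rps genes, which are 1.07 to 9.65 kb long, held 243 day 3 sites, and 85 of them were unique, 35.0% (29.0 to 41.3). The unique sites lay a median of 166 nt from a site of another day, and 27 lay within 50 nt. Within 100 nt of the 5′ end lay 41 of 154 shared sites with a known position and 2 of 82 unique sites.

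No unique site was found in 24 of the 1537 constantly bound genes. Among them were Rpl15, Rpl35, Rpl36a and Rps2 of the ribosome, 4 of the 43 Rpl and Rps genes. Others were the elongation factor Eef1a1, Tpt1, Gas5, a non-coding host of small nucleolar RNAs, Ptma, Tmsb10 and the histone gene H3f3b. Genes of other kinds were there too, such as Chd4, Trrap, Slc6a6, Rap1a and Mob3b. These had 3 to 6 day 3 sites each. Nfib, a transcription factor, was also among them, with 34, 3 and 90 sites on the 3 days. In 77 genes every day 3 site was unique, with a median of 4 and at most 14 day 3 sites.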
